A study of Saccharomyces cerevisiae with 26 samples.

Results

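Aminoacyl-tRNA synthetases are the enzymes that join each amino acid to its tRNA. The 35 synthetase genes of budding yeast that are described here were taken by their identifiers from a table of 7036 genes, 21 of them as cytosolic and 14 as mitochondrial enzymes. Transcripts (RNA-Seq) and ribosome-protected mRNA fragments (Ribo-Seq, here called footprints) were counted for each gene in 26 libraries. The question of the study was what the loss of Tma46 or of Gir2 does to translation, and the series with the Gir2 deletion is described here. Tma46 is the partner of the GTPase Rbg1, and Gir2 that of Rbg2, and Gir2 also binds Gcn1. A strain without the poly(U)-binding protein Pub1 was profiled in the same series, and the study used its data in batch correction.

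Every strain had the BY4742 background, MATalpha his3Δ1 leu2Δ0 lys2Δ0 ura3Δ0, which wt, gir2Δ and pub1Δ shared. The unmodified strain (wt) gave 5 RNA-Seq and 4 Ribo-Seq libraries, the strain with GIR2 deleted by a KanMX cassette (gir2Δ) gave 4 and 4, and the strain with PUB1 deleted in the same way (pub1Δ) gave 5 and 4. All were grown without further treatment in YPD to exponential phase, and RNA-Seq and Ribo-Seq were made from parts of the same lysate. How many clones of each deletion were used was not given in the sources used here. The labels give the replicates as separate samples but do not say that each came from its own culture, so the p-values measure the spread between these libraries, part of which may be technical.

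The labels put each library in 1 of 4 batches. Wt was present in batches 1 and 4, gir2Δ in batch 2 and, as replicate 4, in batch 1, and pub1Δ in batches 3, 4 and 1 for RNA-Seq and 3 and 1 for Ribo-Seq. With batch in the model the gir2Δ estimate therefore rested on replicate 4, and the pub1Δ estimate on replicates 4 and 5 in RNA-Seq and on replicate 4 in Ribo-Seq. RNA-Seq libraries held 2217490 to 3896827 gene counts and Ribo-Seq libraries 540986 to 3123180. GIR2 had at most 16 counts in gir2Δ and PUB1 at most 47 in pub1Δ, against at least 120 and 639 in any wt library. The genotype label of 1 pub1Δ RNA-Seq library names gir2, but its title names pub1Δ, its GIR2 transcript was present and its PUB1 count was among the low values above, and it was kept with pub1Δ.

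Translation runs in 2 compartments of the yeast cell, and each needs a full set of charged tRNAs. Most amino acids have a separate gene for the cytosolic and the mitochondrial enzyme, and both proteins are encoded in the nucleus and made on cytosolic ribosomes, the mitochondrial one being imported afterwards. ALA1 (YOR335C), GRS1 (YBR121C), HTS1 (YPR033C), VAS1 (YGR094W) and CRS1 (YNL247W), the enzymes for alanine, glycine, histidine, valine and cysteine, have no separate mitochondrial gene in the list and supply both compartments. Mitochondrial Gln-tRNA is made by amidation of Glu-tRNA through the complex of HER2, PET112 and GTF1. The enzymes fall into 2 unrelated folds, class I and class II, and phenylalanyl-tRNA synthetase of the cytosol is a complex of FRS2 (YFL022C) and FRS1 (YLR060W) chains. The gene for cytosolic arginyl-tRNA synthetase, YDR341C, is called RRS1 here and is not the ribosome biogenesis gene for which that symbol is also used. Each of the 35 genes has its coding region in 1 exon, with a median coding length of 2004 bp in the cytosolic group (1185 to 3315 bp) and 1670 bp in the mitochondrial group (1140 to 3009 bp).

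The groups differed in sequence around the coding region, read from the RefSeq genome of the R64 assembly. The 8-base motif TGTANATA, the DNA form of the site recognised by Puf3, a protein that binds mRNAs for mitochondrial proteins, was searched on the coding strand in the 200 bases after the stop codon. It was found in 14 of 14 mitochondrial and 4 of 21 cytosolic synthetase genes, against 14.1% of 5994 nuclear coding genes and 65 of 67 genes for mitochondrial ribosomal proteins. The form TGTAAATA was present in 12 mitochondrial genes, in 0 cytosolic genes and in 256 genes of the genome. In the mitochondrial genes the first match began 16 to 92 bases after the stop codon (median 33). In the promoter window the same letters were present in 1 of 14 mitochondrial and 2 of 21 cytosolic genes, against 6.97% of all. A match is a description of the letters and not evidence of binding. The sites of the members on which the values below turn are given here, written 5′ to 3′ with the motif in capitals. AIM10 and ISM1 hold the T form alone, MSK1 holds a pair of sites of which the first is shown, and GLN4 and GUS1 are cytosolic genes with a match.
MSY1 (chrXVI:366498-366525, plus strand): tgcactgactTGTAAATAagattataaa
NAM2 (chrXII:882017-882044, minus strand): cactagtgctTGTAAATAgttaaatatt
MSM1 (chrVII:840788-840815, minus strand): cttactgcacTGTAAATAttaacttaag
MSK1 (chrXIV:490132-490159, plus strand): ccaatgctttTGTAAATAaatcagacat
ISM1 (chrXVI:475958-475985, minus strand): gtacctttccTGTATATAaagaatgcca
AIM10 (chrV:332329-332356, plus strand): cttgtatacaTGTATATAacaccaaaat
GLN4 (chrXV:651742-651769, plus strand): tgtgcatataTGTATATAtttatatata
GUS1 (chrVII:41155-41182, plus strand): acataagtaaTGTATATAcatatttatg

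The opposite pattern held for TGACTC, the core of the site of Gcn4, the activator of amino acid biosynthesis genes that acts downstream of Gcn1 and Gcn2. It was searched on both strands from 250 bases before to 50 bases after the start codon and was found in 9 of 21 cytosolic and 0 of 14 mitochondrial synthetase genes, against 7.96% of all nuclear coding genes. The 9 genes were ALA1, CRS1, GLN4, ILS1, KRS1, RRS1, THS1, VAS1 and YHR020W, the prolyl-tRNA synthetase. The match of GLN4 began 19 bases after the first base of the start codon, inside the coding sequence, and the other 8 lay before it. The sites of 4 members are shown with the motif in capitals, on the strand that carries it.
KRS1 (chrIV:525296-525321, plus strand): aatgatgaaaTGACTCttaatgaact
ILS1 (chrII:84348-84373, minus strand): gaaacaatgaTGACTCttaagcatga
ALA1 (chrXV:949141-949166, minus strand): ttaaggaactTGACTCtttctttcaa
YHR020W (chrVIII:143804-143829, minus strand): agacattcagTGACTCaagcatcgct

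The coding starts differed as well. Over the first 30 codons, arginine and lysine codons outnumbered those for aspartate and glutamate by a median of 4.5 in the mitochondrial genes (range 2 to 8), against a median of 0 in the cytosolic genes (range -5 to 6) and of 0 over all nuclear coding genes. Such a basic, acid-poor start is the usual character of a mitochondrial import signal. Among the cytosolic genes the highest values were those of CRS1, VAS1 and HTS1, at 6, 5 and 4, all of which also supply mitochondria, while GRS1 and ALA1 stood at 2 and 3. HTS1 and VAS1 are known to make the mitochondrial and the cytosolic enzyme from different start codons of the same gene, and the second in-frame ATG was codon 21 of HTS1 and codon 47 of VAS1. The first 25 codons of 3 mitochondrial genes, of HTS1 and of 2 genes for enzymes of the cytosol alone are shown with arginine and lysine codons in capitals.
MSK1 (YNL073W, coding region chrXIV:488386-490116, plus strand): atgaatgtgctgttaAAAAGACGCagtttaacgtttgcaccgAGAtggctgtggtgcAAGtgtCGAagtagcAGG
ISM1 (YPL040C, coding region chrXVI:475993-479001, minus strand): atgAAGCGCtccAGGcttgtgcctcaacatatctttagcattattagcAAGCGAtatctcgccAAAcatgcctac
MSY1 (YPL097W, coding region chrXVI:364952-366430, plus strand): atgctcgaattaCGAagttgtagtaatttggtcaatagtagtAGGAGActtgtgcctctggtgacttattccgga
HTS1 (YPR033C, coding region chrXVI:637379-639019, minus strand): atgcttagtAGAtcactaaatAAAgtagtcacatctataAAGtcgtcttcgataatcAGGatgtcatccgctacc
KRS1 (YDR037W, coding region chrIV:525440-527215, plus strand): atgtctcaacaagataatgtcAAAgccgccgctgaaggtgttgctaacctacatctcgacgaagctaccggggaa
DPS1 (YLL018C, coding region chrXII:109902-111575, minus strand): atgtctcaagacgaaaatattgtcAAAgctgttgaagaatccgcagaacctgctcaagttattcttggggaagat

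Transcript and footprint levels were then set side by side in wt. A level is given as CPM, counts scaled to a common library size, adjusted with TMM factors and divided by the coding length in kb, and because each assay was scaled on its own a transcript level and a footprint level are not on a common scale. The 21 cytosolic genes lay far above the 14 mitochondrial genes in both assays, with no overlap of the gene means. Their transcript levels ran from 151 ± 7.92 for CRS1 to 629 ± 98.4 for KRS1, the lysine enzyme (SD, n = 5), and those of the mitochondrial genes from 12.1 ± 3.54 for ISM1, the isoleucine enzyme, to 33.5 ± 6.83 for MSK1, the lysine enzyme (SD, n = 5). Their footprint levels ran from 154 ± 10.9 for CRS1 to 916 ± 93.0 for SES1 (YDR023W), the serine enzyme (SD, n = 4), and those of the mitochondrial genes from 3.86 ± 1.95 for ISM1 to 17.6 ± 5.65 for MSY1, the tyrosine enzyme (SD, n = 4). The ratio of the median cytosolic to the median mitochondrial level was 17.1 ± 5.74 for transcripts (SD, n = 5) and 65.4 ± 22.0 for footprints (SD, n = 4). Over the 26 libraries of all 3 strains, the cytosolic genes took 1.25% to 1.51% of RNA-Seq and 1.76% to 2.11% of Ribo-Seq library counts. The mitochondrial genes took 0.0328% to 0.0551% and 0.0122% to 0.0214%.

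**Figure D1:**
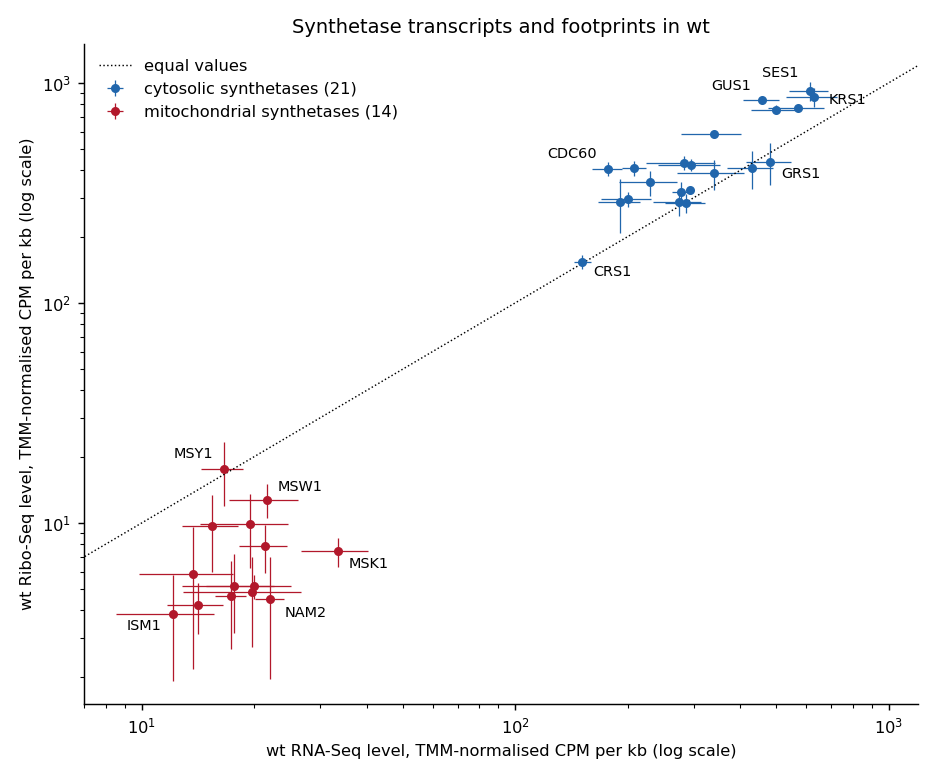
Transcript level against footprint level of the 35 synthetase genes in wt, in TMM-normalised CPM per kb of coding sequence on log axes, as means with SD over 5 RNA-Seq and 4 Ribo-Seq libraries. The 21 cytosolic genes (blue) lie between 151 and 629 for transcripts and the 14 mitochondrial genes (red) between 12.1 and 33.5, and MSY1 has the highest footprint level of the mitochondrial genes at 17.6.

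Within the cytosolic group the order was gradual. For transcripts, none of the 20 neighbouring pairs in the order had ranges over the wt libraries that were apart, from KRS1, SES1 and DED81 (asparagine) at the top to MES1 (methionine), CDC60 (leucine) and CRS1 at the bottom. For footprints 4 of 20 neighbouring pairs were apart: GUS1 (YGL245W), the glutamate enzyme, lay above DED81, THS1 (threonine) above DPS1 (aspartate), DPS1 above GRS1, and WRS1 (tryptophan) above CRS1. KRS1 transcripts stood at 552, 591 and 534 in the wt libraries of batch 1 and at 717 and 750.2 in those of batch 4, and its footprints at 819.6 and 767 in batch 1 and 912 and 949 in batch 4. CRS1, at the other end, was more even, with footprint levels of 149 and 149 in batch 1 and 147 and 170.3 in batch 4. The median transcript level was 254 for the 10 class I genes and 340.0 for the 11 class II genes, and the ranges of 151 to 457 and 208 to 629 overlapped.

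In the mitochondrial group MSK1 had the highest transcript level, with 32.1, 43.0 and 37.0 in batch 1 and 25.0 and 30.4 in batch 4. It was the 1 gene of the group whose range lay above that of the next gene, NAM2 (YLR382C), the leucine enzyme that also takes part in the splicing of mitochondrial introns. The range of MSK1 still overlapped those of genes further down, such as MSW1, which reached 27.0, and MSM1, which reached 27.9. The remaining 13 genes lay within a factor of 1.82, between ISM1 and NAM2, and their ranges overlapped from neighbour to neighbour. For footprints no neighbouring pair of the 13 was apart. MSK1 was at rank 6 there, with 7.42 ± 1.12 (SD, n = 4), while MSY1, at rank 10 for transcripts with 16.5 ± 2.14 (SD, n = 5), was at rank 1. These footprint levels rest on few reads, since a mitochondrial gene had from 3 to 93 counts in a wt Ribo-Seq library.

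The enzymes for the same amino acid in the 2 compartments can be paired in 15 gene pairs, the phenylalanine enzymes giving a pair for each cytosolic chain. The cytosolic transcript level was 8.03 to 40.6 times the mitochondrial one, lowest for leucine (CDC60 over NAM2) and highest for asparagine (DED81, YHR019C, over SLM5, YCR024C). For footprints the ratio ran from 22.3 for tryptophan (WRS1 over MSW1) to 181 for asparagine. It was larger for footprints than for transcripts in 14 of the 15 pairs. Tyrosine was the exception, with TYS1 at 25.9 times MSY1 for transcripts and 23.2 times for footprints. For lysine, the pair with the most abundant transcripts, KRS1 stood at 18.8 times MSK1 for transcripts and 116 times for footprints.

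Footprints per transcript separated the groups in the same way. For each of the 4 wt replicates with both assays, the log2 ratio of footprint to transcript CPM was taken relative to that of the median tested gene of that replicate, so that 0 is the ratio of a typical gene. All 21 cytosolic genes were above 0 in all 4 replicates, with a group median of 1.06. Of the 14 mitochondrial genes 11 were below 0 in all 4 replicates and the group median was -1.11. MSY1 was above 0 in all 4 replicates, at 0.82 and 0.77 in batch 1 and 0.22 and 0.71 in batch 4, a mean of 0.63 ± 0.28 (SD, n = 4). AIM10, the proline enzyme, at -0.062 ± 0.41 and MSW1, the tryptophan enzyme, at -0.10 ± 0.44 (SD, n = 4) lay on both sides of 0.

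Among the cytosolic genes CDC60 (YPL160W) had the highest ratio, at 1.72 and 1.66 in batch 1 and 1.84 and 1.83 in batch 4. ALA1 followed at 1.56 ± 0.095 and GUS1 at 1.43 ± 0.039 (SD, n = 4). CDC60 and ALA1 were thus low in transcripts, at 177 ± 16.4 and 208 ± 15.2 (SD, n = 5), and near the middle of the group in footprints, at 407 ± 30.0 and 409 ± 33.0 (SD, n = 4). GRS1 had the lowest cytosolic ratio, at 0.30 and 0.17 in batch 1 and 0.58 and 0.57 in batch 4, followed by TYS1 at 0.48 ± 0.21 (SD, n = 4). GRS1 has a paralog, GRS2, so reads that match both copies may be missing from its counts in either assay. NAM2 had the lowest mean, -1.85, at -1.45 and -1.12 in batch 1 and -2.26 and -2.56 in batch 4, where its footprint counts were 9 and 9. In batch 1 MSE1 was lower in both replicates, at -1.74 and -1.72.

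**Figure D2:**
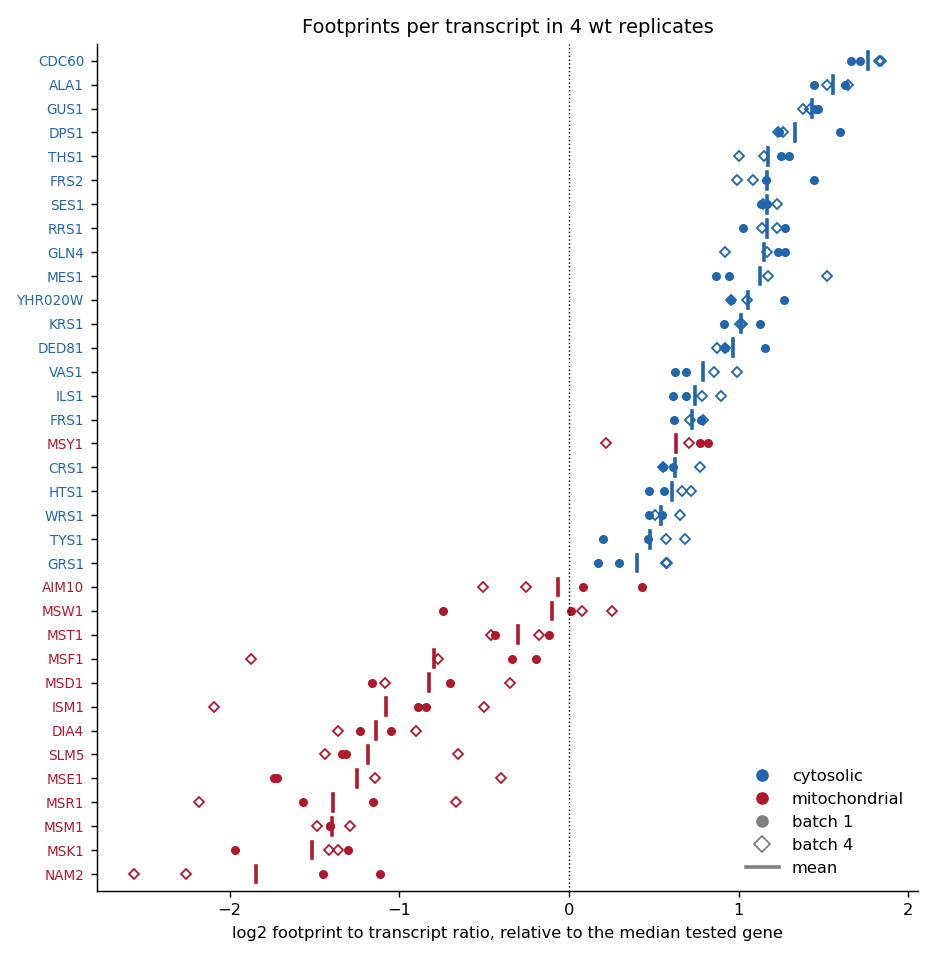
Log2 footprint to transcript ratio of the 35 synthetase genes relative to the median tested gene, with 1 point for each of 4 wt replicates (filled circles, batch 1, open diamonds, batch 4) and a bar for the mean. Every point of the 21 cytosolic genes (blue) lies above 0, 11 of the 14 mitochondrial genes (red) have every point below 0, and MSY1 has all 4 above it.

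The difference between the assays was tested in wt with edgeR's quasi-likelihood test, with batch as a term and Benjamini-Hochberg adjustment over the 4473 genes that reached 10 CPM in at least 4 libraries of each assay. All 21 cytosolic genes but only 9 of the 14 mitochondrial genes reached this level. MSF1, MSE1, MSR1, SLM5 and DIA4, the enzymes for phenylalanine, glutamate, arginine, asparagine and serine, did not, although all 14 had 10 CPM in each RNA-Seq library, so passing depended on the footprints. At an adjusted p under 0.05 the test called 64.5% of all genes, 29.2% higher and 35.3% lower in footprints. It called 21 of 21 cytosolic genes higher, and of the 9 tested mitochondrial genes MSY1 higher and 6 lower. Without the low-count filter, which leaves in all 14, it called 21 of 21 cytosolic genes higher. It also called 1 mitochondrial gene higher and 9 lower, against 59.8% of all 6737 genes. With the filter, 5 of 5 cytosolic elongation factor genes were called higher, with a median log2 difference of 1.06. Of 5 tested mitochondrial translation factor genes 1 was higher and 2 lower (median 0.082). Of 67 mitochondrial ribosomal protein genes 10 were higher and 14 lower (median -0.0023). The log2 differences were 1.71 for CDC60 (SE 0.080, edgeR adjusted p 4.7e-09), 0.33 for GRS1 (SE 0.092, edgeR adjusted p 0.0062), 0.66 for MSY1 (SE 0.15, edgeR adjusted p 0.0015) and -1.69 for NAM2 (SE 0.18, edgeR adjusted p 4.4e-06). MST1, the threonine enzyme, was the weakest call, at -0.39 (SE 0.16, edgeR adjusted p 0.046), and was lost with the replicate number as a block (edgeR adjusted p 0.092), with DESeq2 (DESeq2 adjusted p 0.19) and without RNA-Seq replicate 1, 3 or 5 or Ribo-Seq replicate 2, 3 or 4, its adjusted p running from 0.027 to 0.23 over the alternatives.

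The wt libraries of batches 1 and 4 differed in the balance of the 2 groups. The cytosolic to mitochondrial ratio of median transcript levels was 12.9, 13.3 and 12.7 in batch 1 and 21.8 and 24.8 in batch 4, and that of footprint levels was 48.2 and 45.5 in batch 1 and 78.1 and 89.9 in batch 4. The batches did not overlap in either assay. In gir2Δ the ratio was 13.5 to 17.03 for transcripts and 53.2 to 62.0 for footprints in batch 2, and 13.2 and 52.3 in batch 1. In pub1Δ it was 17.2 to 23.3 for transcripts and 72.2 to 88.2 for footprints in batch 3, 19.6 for transcripts in batch 4, and 12.7 and 55.6 in batch 1. The libraries of batch 1 thus had transcript ratios of 12.7 to 13.3 in all 3 strains. The footprint ratios of batch 3 rested on 96, 164 and 98 counts over the 14 mitochondrial genes, with as few as 1 for a gene. These genes took 0.0140% to 0.0181% of the counts there. In wt footprints they took 0.0196% to 0.0214% in batch 1 and 0.0122% to 0.0130% in batch 4. Batch 2 held gir2Δ alone and batch 3 pub1Δ alone, so there the strain and the batch cannot be told apart.

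**Figure D3:**
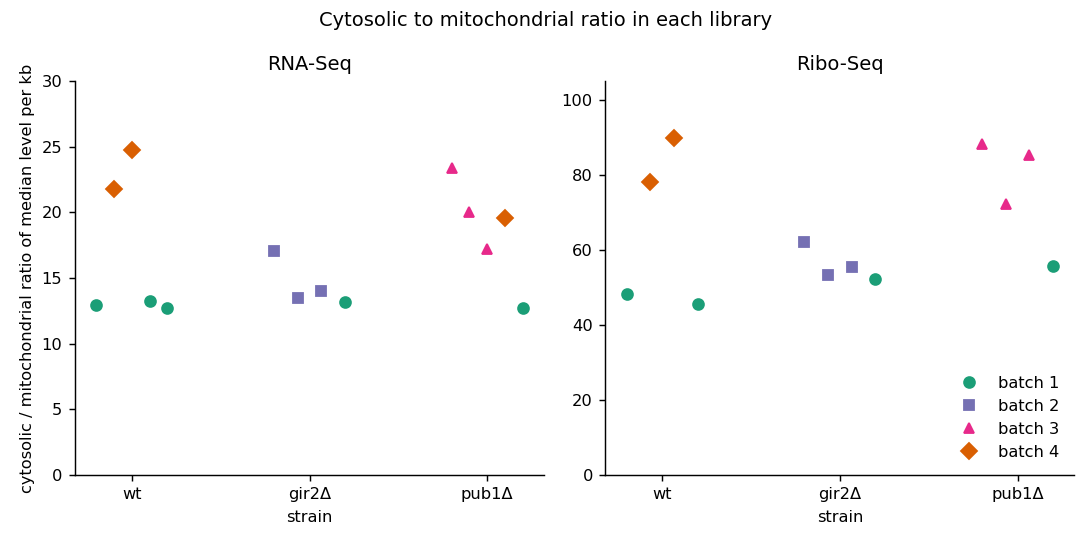
Ratio of the median level per kb of the 21 cytosolic genes to that of the 14 mitochondrial genes in each of 26 libraries, by strain and batch, for RNA-Seq (left) and Ribo-Seq (right). Wt libraries of batch 1 lie at 12.7 to 13.3 and 45.5 to 48.2, and wt libraries of batch 4 at 21.8 and 24.8 and at 78.1 and 89.9.

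The same contrast was tested gene by gene with edgeR in the wt libraries alone, batch 4 against batch 1. For transcripts 15 of the 30 tested synthetase genes were called, against 30.3% of all tested genes, and they split by compartment. Of the cytosolic genes 9 of 21 were higher in batch 4 and 0 lower, where 10.2% of all genes were called higher. Of the 9 tested mitochondrial genes 6 were lower and 0 higher, where 20.1% of all genes were called lower. The median log2 change was 0.29 over the cytosolic genes and -0.49 over the 9 mitochondrial genes, against -0.029 over all tested genes. Without the filter the median over all 14 mitochondrial genes was -0.51, 14 of 14 were lower, 8 were called lower and 13 cytosolic genes were called higher, against 25.1% of 6359 genes called in either direction.

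FRS2 and FRS1, the chains of the same enzyme, had the largest cytosolic rises, of 0.46 (SE 0.12, edgeR adjusted p 0.0066) and 0.45 (SE 0.11, edgeR adjusted p 0.0058). FRS2 transcripts stood at 224, 274 and 228 in batch 1 and 355 and 335 in batch 4, and FRS1 transcripts at 288, 319 and 268 in batch 1 and 415 and 409.9 in batch 4. Neither pair of ranges overlapped, though the share of all genes without overlap was not counted. The FRS2 to FRS1 ratio of transcript levels was 0.78 to 0.86 in wt, with the batches overlapping, while that of footprint levels was 1.24 and 1.25 in batch 1 and 1.05 and 0.99 in batch 4, without overlap. FRS1 footprints were called higher in batch 4, by 0.38 (SE 0.077, edgeR adjusted p 0.0032), and FRS2 footprints stood at 0.093 (SE 0.084, edgeR adjusted p 0.45). In pub1Δ the transcript ratio was 0.95 to 1.01 in batch 3, above every wt library, and 0.87 and 0.86 in batches 4 and 1. MSM1 (YGR171C), the methionine enzyme of mitochondria, had the largest fall, with a log2 change of -0.94 (SE 0.21, edgeR adjusted p 0.0021), from levels of 27.9, 23.5 and 21.4 to 15.6 and 10.3. ISM1 fell by 0.81 (SE 0.19, edgeR adjusted p 0.0039) and MST1 by 0.77 (SE 0.20, edgeR adjusted p 0.0089). MSW1, MSK1 and MSD1, the aspartate enzyme, were the other called mitochondrial genes, and RRS1, YHR020W, DPS1, DED81, GLN4 (glutamine), KRS1 and THS1 the other called cytosolic ones.

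For footprints 14 of 30 were called, against 31.1% of all tested genes, again split by compartment, with 9 cytosolic genes higher (11.2% of all genes were called higher) and 5 mitochondrial genes lower (20.0% of all were called lower). The medians were 0.16 and -0.85, against -0.0058 over all tested genes. MES1 (YGR264C), the methionine enzyme of the cytosol, rose by 0.65 (SE 0.11, edgeR adjusted p 0.0012), with footprint levels of 241 and 205 in batch 1 and 317 and 379.8 in batch 4, and GRS1 and TYS1 rose by 0.53 (SE 0.082, edgeR adjusted p 4.6e-04) and 0.49 (SE 0.086, edgeR adjusted p 0.0012). NAM2 fell by 1.47 (SE 0.33, edgeR adjusted p 0.0058), with 5.84 and 7.38 in batch 1 and 2.55 and 2.18 in batch 4, on 42, 47, 9 and 9 counts. ISM1 fell by 1.22, MSM1 by 1.11, AIM10 by 0.99 and MSY1 by 0.77. NAM2, ISM1 and MSM1 reached 10 CPM in 4, 4 and 3 of the 4 Ribo-Seq libraries of batch 1 and in 0 of the 2 of batch 4, as did MST1 with 4 and 0, so these members passed the filter only through libraries in which they were high. Their falls, the count of mitochondrial genes called and the median of the 9 tested are therefore a description in both assays, and support nothing about the group. FRS1, HTS1, RRS1, KRS1, SES1 and VAS1 were the other called cytosolic genes. Without the filter 9 cytosolic genes were called higher and 7 of 14 mitochondrial genes lower, against 26.8% of 6361 genes called, and the median over all 14 was -0.81, with 13 of 14 lower.

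**Figure D4:**
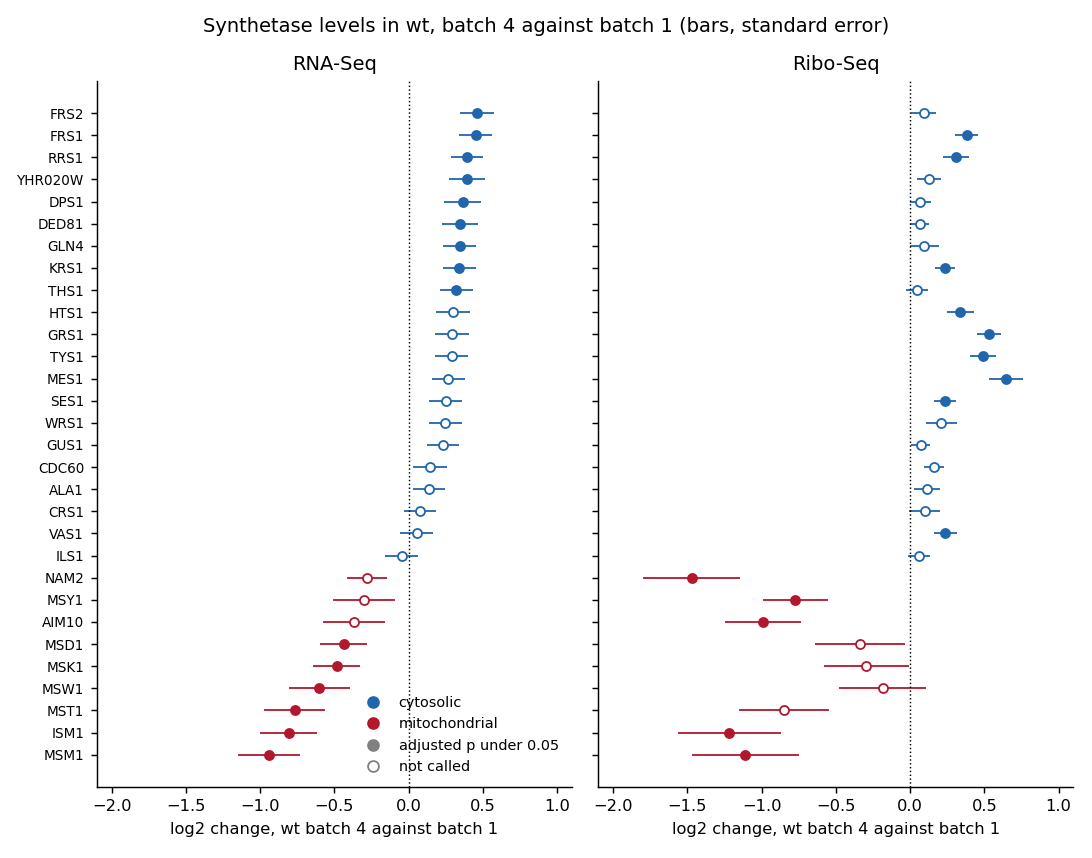
Log2 change with standard error in wt, batch 4 against batch 1, of the 30 tested synthetase genes for RNA-Seq (left) and Ribo-Seq (right), with filled points for an edgeR adjusted p under 0.05. The called cytosolic genes (blue) are all higher in batch 4, up to 0.46 for FRS2 transcripts and 0.65 for MES1 footprints, and the called mitochondrial genes (red) all lower, down to -0.94 for MSM1 transcripts and -1.47 for NAM2 footprints.

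These counts depended on single libraries. With 1 library left out at a time, the cytosolic medians ran over 0.26 to 0.34 for transcripts and 0.094 to 0.22 for footprints. Those of the 9 tested mitochondrial genes, a description only for the reason above, ran over -0.58 to -0.41 and -0.97 to -0.70. For transcripts 5, 6, 4, 16 and 6 members were called without replicates 1 to 5 in turn, where 21.7%, 28.0%, 18.2%, 38.0% and 23.1% of all tested genes were called. For footprints 6, 14, 9 and 3 were called without replicates 1 to 4 in turn, where 21.1%, 38.5%, 27.7% and 18.5% of all were called. DESeq2 called 6 for footprints, all of them cytosolic, and 21.0% of all genes. With a filter at 30 CPM, which no mitochondrial member passed, 4 members were called for transcripts and 9 for footprints, where 31.7% and 38.0% of 3107 genes were called. Whether the change of footprints exceeded that of transcripts was tested as the interaction of batch and assay, a comparison added after the first fits. NAM2 alone of the 30 was called, lower by 1.05 (SE 0.34, edgeR adjusted p 0.049), against 13.0% of all genes, and as above it was tested only through the libraries in which its footprints were high. The replicate number as a block takes same-numbered libraries as 1 lysate. With this block NAM2 was lost (edgeR adjusted p 0.067). MES1 was called instead, higher by 0.53 (edgeR adjusted p 0.023), against 15.6% of all genes. NAM2 was also lost under DESeq2 (DESeq2 adjusted p 0.10), which called 0 members and 9.28% of all genes, and in 8 of the 9 fits that left out 1 library. At 30 CPM 2 members were called, against 17.8% of all genes.

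Related genes were tested in the same comparison, in which 10.2% of all genes were called higher and 20.1% lower for transcripts and 11.2% and 20.0% for footprints. Of the mitochondrial translation factors, 5 of 6 were tested, and TUF1, the elongation factor that brings charged tRNA to the mitochondrial ribosome, fell by 1.38 in transcripts (SE 0.11, edgeR adjusted p 3.3e-08) and by 2.16 in footprints (SE 0.13, edgeR adjusted p 2.4e-07). MEF1 and MEF2, the other elongation factors, were also lower in both assays, and IFM1 and RRF1 were not called in either. Of 67 mitochondrial ribosomal protein genes, 65 with the TGTANATA motif, 5 were called lower and 0 higher in transcripts, a share of 7.46% lower against the 20.1% of all genes, and their median change was -0.081. The 702 tested genes with this motif had a median of -0.085, where all tested genes had one of -0.029. Of the 5 cytosolic elongation factor genes, EFB1, YEF3 and TEF4 were higher in transcripts, by 0.86, 0.69 and 0.52, and TEF4 in footprints, by 0.58. ARC1, the protein that holds the methionine and glutamate enzymes MES1 and GUS1 in a complex, was higher in transcripts, by 0.42 (SE 0.11, edgeR adjusted p 0.0092), and stood at -0.065 in footprints, where it was not called.

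Against this background the loss of GIR2 or PUB1 changed no synthetase past the threshold. In each of the 6 comparisons, transcripts, footprints and ribosome occupancy (the change of footprints beyond that of transcripts) for each deletion, edgeR with batch in the model called 0 of 30 members, and DESeq2 called 0 as well. Over all genes the same fits called 0.0671%, 0.0224% and 0.00% in gir2Δ transcripts, footprints and occupancy, and 0.0447%, 0.134% and 0.00% in pub1Δ. At an unadjusted p under 0.05 the members numbered 1, 2 and 0 in gir2Δ and 2, 1 and 4 in pub1Δ, where 14.0%, 8.43% and 7.60% and then 9.39%, 7.91% and 3.76% of all genes passed. After ComBat-seq batch correction and a model of strain alone, the order of steps in the study, the members called were 3, 12 and 2 in gir2Δ and 1, 3 and 2 in pub1Δ, in fits that called 33.9%, 25.4%, 22.6%, 11.0%, 12.2% and 2.50% of all genes in the same order.

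**Figure D5:**
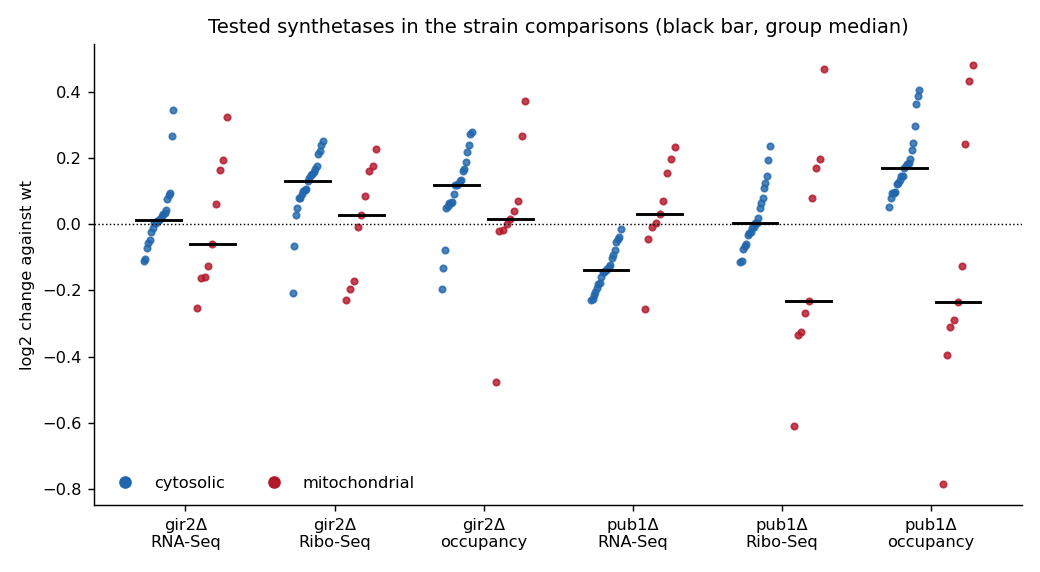
Log2 change against wt of the 21 cytosolic (blue) and 9 tested mitochondrial (red) synthetase genes in 6 comparisons, with a black bar at the group median. No point is called. The cytosolic medians are 0.011, 0.13 and 0.12 in gir2Δ transcripts, footprints and occupancy and -0.14, 0.0022 and 0.17 in pub1Δ.

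In gir2Δ the cytosolic transcripts were centred on 0, with a median log2 change of 0.011 against -0.0026 over all tested genes, and of -0.068 without RNA-Seq wt replicate 5. KRS1 had the smallest p among them, at 0.35 (SE 0.14, edgeR adjusted p 0.29). Its transcript level was 634, 661 and 635 in batch 2 and 721 in batch 1. In wt it stood at 534 to 591 in batch 1 and at 717 and 750.2 in batch 4. Of the cytosolic footprints 19 of 21 were higher, against 43.9% of all tested genes, with a median of 0.13 against -0.037. Without a batch term the medians of transcripts, footprints and occupancy were -0.072, -0.019 and -0.073, so their direction depended on that term. GUS1 had the smallest p in footprints, at 0.25 (SE 0.088, edgeR adjusted p 0.52). Its footprint level was 820.3 and 802 in batch 1 and 836 and 865 in batch 4 in wt, and 893, 875 and 879 in batch 2 and 964 in batch 1 in gir2Δ. Every gir2Δ library was above every wt library for GUS1, but batch 2 held no wt library. The share of all genes with such a separation was not counted. In occupancy GUS1 stood at 0.24 (SE 0.15, edgeR adjusted p 0.74).

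The mitochondrial medians in gir2Δ were -0.060 for transcripts, 0.026 for footprints and 0.016 for occupancy over the 9 tested genes, and -0.092, 0.062 and 0.0063 over all 14 without the filter. Without a batch term they were 0.13, 0.19 and -0.074, and leaving out 1 library at a time moved them over -0.15 to -0.046, -0.023 to 0.11 and -0.038 to 0.13. MSD1 had the smallest p for transcripts, at 0.32 (SE 0.18, edgeR adjusted p 0.43), and for occupancy, at -0.48 (SE 0.39, edgeR adjusted p 0.82), which was -0.19 without Ribo-Seq wt replicate 1 and -0.70 without replicate 4. MSY1 had the smallest p for footprints, at -0.23 (SE 0.30, edgeR adjusted p 0.88), which was -0.15 without Ribo-Seq wt replicate 1. MSD1 transcripts stood at 28.6 in the gir2Δ library of batch 1 and at 22.6 to 24.4 in the wt libraries of that batch, and at 21.1 to 24.2 in gir2Δ batch 2.

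In pub1Δ all 21 cytosolic transcripts had a fitted change below 0, where 49.7% of all tested genes were higher, and the median was -0.14 against -0.00089. The median cytosolic level was 280 in the pub1Δ library of batch 4 and 335 and 336 in its wt libraries, and 259 in the pub1Δ library of batch 1 and 263 to 289 in its wt libraries. The 3 libraries of batch 3 stood at 292 to 328. Leaving out pub1Δ replicate 4 moved the fitted median to -0.061 and leaving out replicate 5 to -0.22. DED81 had the smallest p, at -0.23 (SE 0.10, edgeR adjusted p 0.50), and its transcripts stood at 579.6 in pub1Δ and 678 and 657 in wt in batch 4, and at 427 in pub1Δ and 503, 567 and 452 in wt in batch 1. VAS1 was next, at -0.21 (SE 0.098, edgeR adjusted p 0.51).

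ILS1 (YBL076C), the isoleucine enzyme of the cytosol, was not called in pub1Δ in either assay or in occupancy. Its transcripts were even in wt, at 299.6, 293 and 288 in batch 1 and 297 and 291 in batch 4, and stood in pub1Δ at 229.9, 239 and 206 in batch 3, 249.6 in batch 4 and 281 in batch 1. Every pub1Δ library was below every wt library, and the 3 lowest were those of batch 3, which held pub1Δ alone. How many of all genes separate in this way was not counted. Its footprints were 328 and 308 in batch 1 and 324 and 338 in batch 4 in wt, and 315, 333 and 271 in batch 3 and 364 in batch 1 in pub1Δ, so the groups overlapped. ILS1 had the smallest cytosolic p for footprints, at 0.19 (SE 0.11, edgeR adjusted p 0.72), which was -0.016 without a batch term, and for occupancy, at 0.36 (SE 0.16, edgeR adjusted p 1.00). For transcripts ILS1 stood at -0.14 (SE 0.091, edgeR adjusted p 0.66) once batch was in the model.

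Occupancy in pub1Δ had a cytosolic median of 0.17, against 0.0078 over all tested genes, and all 21 fitted values were above 0, where 51.3% of all tested genes were. Occupancy is the footprint change less the transcript change, and its transcript part came from the RNA-Seq libraries of the transcript comparison. The cytosolic footprint median was 0.0022, so the transcript and occupancy medians are not separate observations. With batch in the model the transcript part rested on RNA-Seq pub1Δ replicates 4 and 5 and the footprint part on Ribo-Seq replicate 4. The RNA-Seq library of replicate 4 was of batch 4, which held no pub1Δ Ribo-Seq library. Without RNA-Seq pub1Δ replicate 4 the occupancy median was 0.092 and without replicate 5 it was 0.26. Of the mitochondrial genes MSY1 had the smallest p for footprints, at -0.61 (SE 0.27, edgeR adjusted p 0.59), and for occupancy, at -0.78 (SE 0.32, edgeR adjusted p 1.00), which was -1.06 without RNA-Seq pub1Δ replicate 4 and -0.35 without replicate 5. MSY1 footprints stood at 14.6 in the pub1Δ library of batch 1 and 23.5 and 21.1 in the wt libraries of that batch, but at 18.1, 26.5 and 27.7 in pub1Δ batch 3. Without a batch term both values reversed, to 0.24 and 0.17. MSK1 had the smallest mitochondrial p for transcripts, at 0.23 (SE 0.13, edgeR adjusted p 0.63). The median over the 9 tested mitochondrial genes was 0.032 for transcripts, -0.23 for footprints and -0.24 for occupancy, and -0.057, 0.10 and 0.14 without a batch term. The transcript median was -0.0075 without RNA-Seq pub1Δ replicate 4 and 0.14 without replicate 5, the footprint median was 0.0068 without Ribo-Seq wt replicate 1, and the occupancy median was -0.11 without RNA-Seq pub1Δ replicate 4 and -0.15 without replicate 5.

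The tested context genes were not called in these comparisons either. Of the 6 charging partners 3 were tested, and HER2, PET112 and FMT1, the formyltransferase of mitochondrial initiator tRNA, were left out as too low in footprints. Of the cytosolic elongation factors YEF3, the fungal elongation factor that clears the exit site of the ribosome, came closest, at -0.32 in pub1Δ footprints (SE 0.092, edgeR adjusted p 0.25). The mitochondrial translation factors had median changes of -0.087 and -0.067 in gir2Δ and -0.10 and -0.13 in pub1Δ, for transcripts and footprints.

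The levels of the cytosolic enzymes were also set beside the use of their amino acids. The use of each of the 20 amino acids was estimated from the codons of all nuclear coding genes, weighted by the footprint level of each gene in wt. Over the 20 amino acids the synthetase footprint level and this use had a Spearman's rho of 0.62 and a Pearson's r of 0.56, or 0.45 without tryptophan and cysteine, the amino acids with the lowest use. With transcript counts in place of footprints rho was 0.35 and r was 0.40. No p is given, since all points come from the same libraries. Cysteine had a use of 0.934% and the lowest enzyme level, 154 for CRS1, while tryptophan had a use of 0.906% and a level of 284 for WRS1. Leucine and alanine, used at 8.19% and 8.60%, had levels of 407 for CDC60 and 409 for ALA1, below the 765 of DED81 for asparagine, used at 4.73%.

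Codon choice differed between the groups too. The codon adaptation index, a measure of how far a gene uses the codons of highly expressed genes, had a median of 0.41 in the cytosolic and 0.18 in the mitochondrial genes, against 0.19 over all nuclear coding genes. The lowest cytosolic value, 0.34 for CRS1, lay above the highest mitochondrial value, 0.22 for MST1. Across the 21 cytosolic genes the index followed the footprint level with a Spearman's rho of 0.81 and the transcript level with 0.75, and the footprint to transcript ratio with 0.21. Across the 14 mitochondrial genes the same values were 0.029, -0.20 and 0.23. Genes are not independent replicates, and MSY1, the mitochondrial gene with the highest footprint to transcript ratio, had an index of 0.15.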

How the data were processed

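Per the methods of the study, the authors used cutadapt 2.10 for trimming, collapsed identical footprint reads, discarded rRNA and counted reads per gene with STAR 2.7.9a on the R64-1-1 genome. The deposited values are these raw gene counts, for 14 RNA-Seq and 12 Ribo-Seq libraries. No strand setting was given in the sources used here. Columns of per-sample values left unused numbered 0.

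Genes with 10 CPM in at least 4 libraries of each assay were tested (4473 of 6866 with any count in the 7036 gene table). edgeR 4.0.16 in R 4.3.3 was used with TMM factors, the quasi-likelihood test and Benjamini-Hochberg adjustment. Batch was a model term in each assay, and occupancy was the strain by assay interaction with batch by assay terms. This batch term replaced the ComBat-seq step of the study, which was run as an alternative (sva 3.50.0), as were DESeq2 1.42.0, other scaling and filters, no batch term, and leaving out each library. The models were tested on simulated data for all 10 comparisons, with results not given here. The simulated counts used the spread fitted to these data, so they cannot show how far strain and batch are confounded. Levels per kb used coding lengths from RefSeq, matched by gene identifier for all 35 members. RefSeq lists YDR341C under its identifier, so RRS1 is a name used here. No protein sequences were used.

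The block takes same-numbered wt RNA-Seq and Ribo-Seq libraries as 1 lysate, which the labels do not state. Their deviations correlated at 0.75 to 0.77. Same-numbered wt libraries also shared a batch, so this cannot tell 1 lysate from 1 batch. Numbers were not taken to pair strains (r from -0.58 to 0.89, the highest for wt and pub1Δ Ribo-Seq replicate 4, both of batch 1). The counts of any 2 replicates differed by more than sampling noise (chi-square per degree of freedom of at least 2.12). Genes named with values in each library are those called, the smallest p in each group and strain comparison, the highest and lowest by level or ratio, the largest called batch changes, FRS1 and FRS2, and the enzymes supplying both compartments, the last by their main values only. The members and lists were chosen with earlier results of these data known.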

Additional observations from a re-analysis of the deposited data

Results flagged for a closer look

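The levels of the 35 genes, and 4 measures of the groups, were looked at in each strain and assay, and of these 234 sets of 4 or 5 values 8 (3.42%) held a library far from the others of its group, where chance gives about 5%. In transcripts, ALA1 stood at 160.5 per kb in pub1Δ replicate 3 (others 193 to 200.2), SLM5 at 18.2 in the same library (others 11.1 to 12.0) and THS1 at 411 in gir2Δ replicate 3 (others 459.5 to 468). In footprints, DPS1 stood at 629 in pub1Δ replicate 1 (others 553 to 564), FRS2 at 477 in wt replicate 2 (others 415 to 421), CRS1 at 170.3 in wt replicate 3 (others 147 to 149), SLM5 at 4.03 in gir2Δ replicate 3 (others 4.99 to 5.18) and MSR1 at 1.39 in gir2Δ replicate 4 (others 3.96 to 4.19).

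The change of NAM2 from batch 1 to batch 4 in wt differed between footprints and transcripts with a log2 interaction of -1.05 (SE 0.34) and an adjusted p of 0.049 in edgeR. Its footprints reached 10 CPM in 0 of the 2 batch 4 libraries, so it was tested only through libraries in which it was high, and the call was lost with the replicate block (edgeR adjusted p 0.067), with DESeq2 (DESeq2 adjusted p 0.10) and in 8 of the 9 fits without 1 library.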

How the results depend on the processing

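After ComBat-seq the members called were 3, 12 and 2 in gir2Δ transcripts, footprints and occupancy and 1, 3 and 2 in pub1Δ, against 0 in each of the 6 with batch in the model. A filter at 30 CPM, which no mitochondrial member passed, left 4, 9 and 2 called between the wt batches in transcripts, footprints and occupancy (31.7%, 38.0% and 17.8% of all genes), and DESeq2 called 6 in footprints and 0 in occupancy (21.0% and 9.28%). Leaving out 1 library gave 4 to 16, 3 to 14 and 0 to 2 calls in the same order. In batch 4 libraries alone the cytosolic to mitochondrial transcript ratio was 23.3 and the cytosolic footprint to transcript ratio 1.01 (log2). With transcript counts the amino acid relation was 0.35. Without a batch term MSY1 reversed to 0.15 in gir2Δ footprints and to 0.24 and 0.17 in pub1Δ footprints and occupancy, and ILS1 to -0.016 in pub1Δ footprints. The cause of these changes was not tested. Over all alternatives 549 group values stayed close to the main fit and 29 moved. Closeness was judged by the spread between wt libraries or, for call counts, by a fold limit. For the group medians that spread was 0.15 to 0.38 in log2 within an assay, and it included the difference between wt batches 1 and 4. A median could therefore change sign and still count as close, as in pub1Δ mitochondrial occupancy, -0.24 with and 0.14 without a batch term. The tally thus does not show that the strain medians were stable. Of the single-gene values 822 kept their direction and their side of the threshold. A further 111 were no longer called, 13 became called and 4 reversed.

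With the replicate number as a block, 27 members were called between wt footprints and transcripts in place of 28. Over all 4473 tested genes these fits called 2603 and 2885. In wt batch occupancy 1 member was called, against 15.6% of all genes. In the 6 strain comparisons, whose numbers were not taken to pair samples, 0 were called, against at most 10 of all genes. Fits without gir2Δ replicate 4, or without Ribo-Seq pub1Δ replicate 4, could not be made, since the strain is then confounded with batch. Footprint values of mitochondrial genes are limited by counts of 3 to 93 per wt library, and of as few as 1 in pub1Δ libraries of batch 3.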
